A study of Homo sapiens with 14 samples.

Results

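Genes of HLA class I antigen presentation, 9 in all, were followed by symbol through both expression tables of the series: the heavy chain genes HLA-B, HLA-C, HLA-E and HLA-F, the light chain gene B2M, the peptide transporter genes TAP1 and TAP2, and the immunoproteasome genes PSMB8 and PSMB9. All 9 were found among the 44591 genes of the LNCaP table and among the 24199 features of the DU145 table. The series asks how the transcription factor PAX6 acts in neuroendocrine prostate cancer. LNCaP, a hormone-responsive prostate cancer cell line, was sequenced as 1 library of parental wild-type cells and 1 library of LNCaP-ENZ cells, which are labelled enzalutamide resistant and kept in 20 µM enzalutamide, an antiandrogen drug given against prostate cancer, for 30 days. DU145, a hormone-independent prostate cancer cell line, was sequenced as 3 libraries with a non-target short hairpin RNA (shCON, genotype labelled WT) and 3 libraries with a hairpin against PAX6 (shPAX6). Hairpins were delivered by lentivirus into subclone lines, so the shCON cells carry a vector too, and neither the labels nor the methods say which PAX6 hairpin was sequenced or whether libraries came from separate cultures. The p-values given for DU145 therefore measure the spread between these libraries, which may be technical.

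Nearly every nucleated cell displays peptides from its own proteins on class I molecules, in which a polymorphic heavy chain pairs with beta-2-microglobulin. The proteasome cuts proteins to peptides, TAP1 and TAP2 pump these into the endoplasmic reticulum, and a loading complex fits them into the groove. Interferons raise most of these genes through factors such as IRF1 and NLRC5, and swap catalytic subunits of the proteasome for inducible ones. Tumours of epithelial origin often lower class I to escape T cells, while HLA-E presents signal peptides to natural killer cells.

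Cell identity was checked first. LNCaP libraries held the prostate marker KLK3 at 88.8 and 66.1 CPM (counts scaled to a common library size of 1000000), whereas KLK2, KLK3 and TMPRSS2 were at or near 0 FPKM in all 6 DU145 libraries. Of 12 leukocyte markers, 3 passed a mean of 1 CPM in LNCaP, and their summed level was 28.1 CPM in parental and 30.7 CPM in LNCaP-ENZ cells. CD68 gave most of it, PTPRC had 23 and 28 counts and LYZ 17 and 21. MS4A1 and TYROBP were at 0 counts in both, and ITGAM went from 1 to 14 counts. In DU145, 6 of the 12 were at 0 FPKM in all 6 libraries, PTPRC and CD3E among them. The 2 tested were CD68 and CD14, and 0 were called. CD68 was at 35.8 to 38.6 FPKM in shCON and 24.3 to 26.2 FPKM in shPAX6 (limma adjusted p 0.077). CD14 was at 0.353 to 0.922 FPKM over the libraries. Of the epithelial and prostate markers, TMPRSS2 and KLK2 were at least 2-fold lower in LNCaP-ENZ cells, and in DU145 1 was called, the adhesion gene CDH1, lower in shPAX6 (limma adjusted p 0.033). Fibroblast and endothelial markers summed to 41.0 CPM in parental and 17.7 CPM in LNCaP-ENZ cells, with VWF at 345 and 27 counts, and in DU145 1 of 7 was tested and 0 were called. The targeted gene PAX6 was listed at 0.839, 1.23 and 1.57 FPKM in shCON and at 0.0153, 0.274 and 0.0778 FPKM in shPAX6. The groups did not overlap, and the adjusted p was 0.054 (limma, log2 fold change -2.69). PAX6 reached the filter, a mean of 0.5 FPKM, through shCON alone. Its shPAX6 values are close to the 0.1 FPKM added before taking log2, so the size of this fold depends on that addition. In LNCaP, PAX6 had 11 parental and 4 LNCaP-ENZ counts.

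The promoters of the members are the stretches where interferon and NF-kappaB factors are known to act. Those below are marked where they match the exact letters of a few searched motifs. A site that departs from these letters is not marked, so lower case does not mean that a gene lacks such a site. RefSeq (GRCh38.p14) gave 10 promoter entries of 300 bases for 8 of the 9 members. HLA-E had no entry. Only bases before the start of transcription are shown, each written on the strand of its gene. Capitals mark the letters of a searched motif on either strand: the core of the interferon-stimulated response element (ISRE, a GAAA and a further GAAA with any NN between them), kappaB sites in a long and a shorter form, CCAAT, and TGACG, the cyclic AMP element half-site. In B2M, overlapping ISRE cores run together.
B2M promoter, chr15:44711367-44711477 (plus strand, GRCh38.p14): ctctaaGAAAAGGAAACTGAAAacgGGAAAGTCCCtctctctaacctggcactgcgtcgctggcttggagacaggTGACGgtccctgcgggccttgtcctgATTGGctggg
HLA-B promoter, chr6:31357229-31357359 (minus strand, GRCh38.p14): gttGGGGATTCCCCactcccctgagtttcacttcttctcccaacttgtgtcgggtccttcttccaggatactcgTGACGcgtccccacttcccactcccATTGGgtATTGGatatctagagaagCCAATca
HLA-C promoter, chr6:31272142-31272272 (minus strand, GRCh38.p14): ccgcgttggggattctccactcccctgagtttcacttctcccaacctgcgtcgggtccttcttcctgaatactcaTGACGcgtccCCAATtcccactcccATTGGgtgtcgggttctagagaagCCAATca
HLA-F promoter, chr6:29723254-29723384 (plus strand, GRCh38.p14): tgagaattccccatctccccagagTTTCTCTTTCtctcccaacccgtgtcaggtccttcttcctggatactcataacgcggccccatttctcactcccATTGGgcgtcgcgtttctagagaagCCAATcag
TAP1 promoter, chr6:32853764-32853844 (minus strand, GRCh38.p14): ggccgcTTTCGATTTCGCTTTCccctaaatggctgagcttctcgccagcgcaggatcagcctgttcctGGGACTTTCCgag
TAP2 promoter, chr6:32838760-32838809 (minus strand, GRCh38.p14): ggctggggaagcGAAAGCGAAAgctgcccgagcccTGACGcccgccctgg
The exact letters of the ISRE core were present in the promoters of 5 members, HLA-F, B2M, TAP1, TAP2 and PSMB8, and in 3.57% of all 35116 RefSeq promoters. Variant forms of the element, in HLA-B and HLA-C among others, were not searched. The long kappaB form was found in HLA-B and in 0.0313% of all promoters. HLA-C carries the substitution C9T against HLA-B there, counted from 1 at the 5′ end of the motif, so its copy is in lower case. A shorter kappaB form was found in B2M and TAP1 and in 0.558% of promoters, CCAAT is in 34.6% and TGACG in 24.6%. A GAS-like sequence (TTCNNNGAA) was found in second entries of TAP1 and PSMB8 and in 7.66% of promoters. TAP1 and PSMB9 are read in opposite directions from starts 488 or 1431 bases apart, depending on which of the TAP1 entries is taken. These are matches of letters, and no binding was measured.

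In LNCaP, mRNAs of the classical class I molecule were higher in LNCaP-ENZ than in parental cells, while HLA-E was lower. HLA-B and B2M were more than 2-fold higher, HLA-C and TAP1 about 1.5-fold higher, TAP2 about equal, and the immunoproteasome genes were at 24 counts or fewer in either library. Each arm is 1 library, so no test is possible. Ratios are log2 of CPM + 0.1, and the 95% exact intervals in brackets cover counting error only, not the spread between cultures. Totals were 20468001 counts in parental and 17945722 in LNCaP-ENZ cells, which puts a floor of 3 counts at 0.147 and 0.167 CPM.

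The light chain gene B2M (chr15:45003685-45010357, plus strand, hg19, as are the positions that follow) had 3129 counts in parental and 6022 in LNCaP-ENZ cells, or 153 and 336 CPM. It was 2.19-fold higher, a log2 ratio of 1.13 [1.07 to 1.20]. B2M was the most abundant member per length in both libraries, at 162 and 334 TPM, and pairs with every heavy chain described here.

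HLA-B (chr6:31321643-31325022, minus strand), a classical heavy chain that shows peptides to T cells, had 896 and 1740 counts, or 43.8 and 97.0 CPM. Its log2 ratio was 1.15 [1.03 to 1.27], or 2.21-fold. HLA-C (chr6:31236526-31239913, minus strand), the classical heavy chain read mainly by killer cell receptors, had 2069 and 2808 counts, or 101 and 156 CPM, a log2 ratio of 0.63 [0.55 to 0.71]. The interval of HLA-B lay above that of HLA-C, so their ratios differed by more than counting error. These genes are close in sequence, and reads shared between heavy chain genes may have been counted for either.

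HLA-E (chr6:30457183-30461982, plus strand), the non-classical ligand of the NKG2 receptors, went the other way, with 673 and 329 counts, or 32.9 and 18.3 CPM. Its log2 ratio was -0.84 [-1.04 to -0.65]. HLA-F (chr6:29691117-29695073, plus strand), another non-classical heavy chain, was counted 46 times in parental and 32 times in LNCaP-ENZ cells, and its log2 ratio of -0.32 had an interval that holds 0 [-1.03 to 0.35]. HLA-F overlaps the antisense gene HLA-F-AS1 (37 and 27 counts) and a ribosomal pseudogene, and without a stated strand of counting their reads cannot be told apart.

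TAP1 (chr6:32812986-32821748, minus strand), a subunit of the peptide pump, had 412 and 535 counts, or 20.1 and 29.8 CPM, a log2 ratio of 0.56 [0.38 to 0.76]. TAP2 (chr6:32789610-32806600, minus strand), its partner subunit, had 453 and 399 counts, which is 22.1 and 22.2 CPM. Its log2 ratio was 0.01 [-0.19 to 0.20], and the intervals of the transporter subunits did not overlap.

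PSMB8 (chr6:32808494-32812712, minus strand), the inducible chymotrypsin-like subunit, had 4 counts in parental and 11 in LNCaP-ENZ cells. Its log2 ratio was 1.27 [-0.11 to 3.76]. Its neighbour PSMB9 (chr6:32821938-32827628, plus strand), the inducible subunit that takes the place of PSMB6, had 12 and 24 counts, a log2 ratio of 1.07 [0.13 to 2.32]. Both had a mean under 1 CPM in these libraries, and the interval of PSMB8 does not exclude an equal level. PSMB8-AS1, on the opposite strand and overlapping both PSMB8 and TAP1, had 54 and 105 counts, more than PSMB8 itself.

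Among all 9 members, 7 had a ratio above 0 and 2 below, and the median log2 ratio was 0.63. The median over the 14767 genes with a mean of at least 1 CPM was -0.15. Of those genes 1.84% were at least 2-fold higher and 9.57% at least 2-fold lower. Of the members 7 were over that filter, and 2 of them, HLA-B and B2M, were at least 2-fold higher and 0 at least 2-fold lower. Counted without the filter, PSMB8 and PSMB9 made 4 members at least 2-fold higher. Of the 7 members over the filter, intervals lay above 0 for 4 and below 0 for 1, beside 21.6% and 42.3% of all genes over the filter, and the interval of PSMB9, under the filter, also lay above 0.

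**Figure D1:**
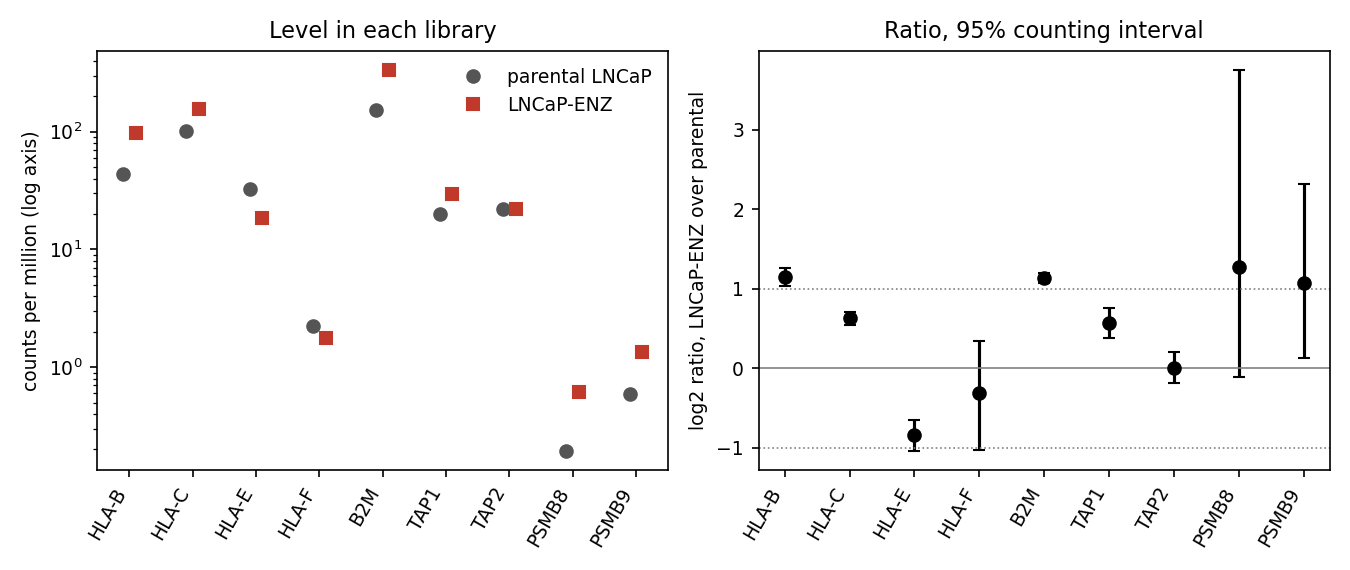
Left, the level of each class I presentation gene in the parental LNCaP library (circles) and the LNCaP-ENZ library (squares), in CPM on a log axis. Right, the log2 ratio of LNCaP-ENZ over parental with its 95% exact counting interval, dotted lines marking 2-fold. B2M and HLA-B sit above the upper line at 1.13 and 1.15 with narrow intervals, HLA-E lies at -0.84, and the intervals of PSMB8 and PSMB9 are wide.

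The inducible subunits take the places of constitutive ones, so their ratio within a library is not moved by library scaling. Per length, PSMB8 was 0.134% of PSMB5 in parental cells [0.0366 to 0.345%] and 0.400% in LNCaP-ENZ cells [0.199 to 0.717%]. PSMB9 was 0.520% of PSMB6 in parental cells [0.268 to 0.910%] and 1.04% in LNCaP-ENZ cells [0.665 to 1.55%]. For both pairs the intervals of the libraries overlap. PSMB10, the third inducible subunit and no member of the set, was far more abundant, at 22.9% of PSMB7 [20.0 to 26.0%] and 27.3% [24.2 to 30.7%]. The constitutive subunits PSMB5, PSMB6 and PSMB7 had log2 ratios of 0.08, 0.19 and 0.24 between the libraries.

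Around the members, the other steps of the pathway were read from lists of related genes. Of 7 peptide loading and trimming genes, 1 was at least 2-fold higher and 0 at least 2-fold lower. This was TAPBPL, a peptide editor related to tapasin, with 17 and 41 counts (log2 ratio 1.36). At 0.831 and 2.28 CPM, it passed the filter through the LNCaP-ENZ library. Of 3 other inducible proteasome genes, 0 passed 2-fold, with PSMB10 at 288 and 356 counts (log2 ratio 0.49) and PSME1, a subunit of the proteasome activator PA28, at 0.52. Of 11 shared core subunits 0 passed 2-fold, and their median was -0.05, with the alpha ring subunits PSMA2 at -0.74 and PSMA3 at -0.45.

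Of 12 transcription regulators of class I genes, 1 was at least 2-fold higher and 0 lower. IRF9, the DNA-binding part of the type I interferon factor ISGF3, had 56 and 111 counts (log2 ratio 1.15). The interferon-induced activator IRF1 had 198 and 344 counts (0.98) and the class I transactivator NLRC5 164 and 233 (0.69). Among 7 interferon receptors and kinases, the receptor chain IFNAR1 was the one past 2-fold, lower at 1275 and 554 counts (log2 ratio -1.01). Of 18 interferon-stimulated genes outside presentation, 9 were over the filter, and 4 of these were at least 2-fold higher: GBP2, a guanylate-binding protein (9 and 47 counts), the antiviral enzyme OAS1 (36 and 107), the membrane tether BST2 (128 and 354) and OASL (41 and 74). GBP2 passed the filter through the LNCaP-ENZ library. IFIT2, which was under the filter and was named after its values were seen, was lower, at 32 and 4 counts (log2 ratio -2.37 [-4.77 to -1.31]).

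Class II genes, which present outside proteins to helper T cells, had a median log2 ratio of 2.70, beside 0.56 for the class I members over the filter. Of these 9 genes 6 were at least 2-fold higher, with CD74 (6 and 786 counts) and HLA-DRA (3 and 414) the largest. CD74, HLA-DRA, HLA-DRB1, HLA-DPA1 and HLA-DQA1 were under 1 CPM in parental cells and passed the filter through the LNCaP-ENZ library. HLA-DRA was at the floor of 3 counts in parental cells and HLA-DQA1 under it at 1 count, so the size of their ratios is uncertain. Other class I-like genes had 6 of 10 over the filter and 0 past 2-fold in either direction, with ULBP3, a stress ligand of the receptor NKG2D, at -0.68 and FCGRT, the neonatal Fc receptor chain, at 0.35. Across the remaining 279 genes of the HLA region of chromosome 6, 116 were over the filter, from UBD (start 29523389) to ZBTB9 (end 33425321). Of these 11 were at least 2-fold higher and 5 at least 2-fold lower, beside 1.84% and 9.57% of all genes over the filter. HLA-DRA, HLA-DRB1, HLA-DPA1, HLA-DQA1 and UBD (3 and 42 counts) are among the 11 and passed the filter through the LNCaP-ENZ library. The median over the 116 genes was 0.12. The highest were HLA-DRA (6.55) and HLA-DQA1 (4.00), and the lowest CDSN (-1.23) and DXO (-1.11).

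In DU145, knockdown of PAX6 came with no called change in any class I presentation gene. HLA-E was the one member whose groups did not overlap, with a difference of -30.9% between the group means, and it missed the adjusted threshold. The deposited values were treated as FPKM (fragments scaled by transcript length and library size, which gives no depth), and fold changes are on the scale of log2(FPKM + 0.1). The limma test called 163 of 13574 features at an adjusted p under 0.05, which is 1.2% in either direction, 0.177% higher and 1.02% lower. Of the 9 members, 0 were called, and 1 had an unadjusted p under 0.05, against 18.3% of all features. Groups did not overlap for 6.7% of features in the higher and 20% in the lower direction.

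HLA-E (ENSG00000204592) was at 71.0, 72.4 and 74.8 FPKM in shCON and at 52.4, 46.3 and 52.1 FPKM in shPAX6. Every shPAX6 library lay below every shCON library, with means of 72.7 ± 1.95 and 50.3 ± 3.46 (SD, n = 3 libraries each). The log2 fold change was -0.53 (SE 0.12, 95% interval -0.81 to -0.26), with a limma p of 0.0022 and an adjusted p of 0.078. With shPAX6 library 1 left out it passed, at -0.57 and an adjusted p of 0.026, in a fit that called 6.78% of all features.

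HLA-B (ENSG00000234745) was at 153, 166 and 142 FPKM in shCON and at 251, 137 and 179 FPKM in shPAX6. The shPAX6 values spanned the shCON range on both sides, and library 1 set the difference of the means, 154 ± 12.2 against 189 ± 57.8. The log2 fold change was 0.26 (SE 0.22, 95% interval -0.26 to 0.77, limma adjusted p 0.61), and 0.03 without that library. HLA-C (ENSG00000204525) was at 197, 223 and 219 FPKM in shCON and at 222, 154 and 196 FPKM in shPAX6. The groups overlapped, and the log2 fold change was -0.17 (95% interval -0.56 to 0.21, limma adjusted p 0.64). HLA-F (ENSG00000204642) was at 20.6, 22.3 and 20.8 FPKM in shCON and at 27.6, 16.8 and 22.6 FPKM in shPAX6, with the highest and lowest value both in shPAX6 and a log2 fold change of 0.05 (95% interval -0.40 to 0.49).

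B2M (ENSG00000166710) was at 783, 755 and 654 FPKM in shCON and at 834, 740 and 857 FPKM in shPAX6. The groups overlapped, and the log2 fold change was 0.15 (95% interval -0.20 to 0.50, limma adjusted p 0.66). TAP1 (ENSG00000168394) was at 40.7, 44.01 and 44.9 FPKM in shCON and at 36.4, 43.0 and 45.7 FPKM in shPAX6. TAP2 (ENSG00000204267) was at 36.7, 38.9 and 36.6 FPKM in shCON and at 32.8, 39.1 and 39.5 FPKM in shPAX6. Both transporter genes were lowest in shPAX6 library 1, the library in which HLA-B was highest, and their log2 fold changes of -0.06 and -0.02 had intervals of -0.37 to 0.26 and -0.32 to 0.29.

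PSMB8 (ENSG00000204264) was at 40.8, 41.0 and 43.0 FPKM in shCON and at 42.7, 35.2 and 43.8 FPKM in shPAX6. Its log2 fold change was -0.04 (95% interval -0.35 to 0.27). PSMB9 (ENSG00000240065) was at 28.0, 29.9 and 23.1 FPKM in shCON and at 43.0, 23.8 and 33.4 FPKM in shPAX6, a log2 fold change of 0.27 (SE 0.23, 95% interval -0.26 to 0.81) that was 0.07 without shPAX6 library 1. Overlapping groups were thus seen for 8 of 9 members. Over the set, 4 log2 fold changes were above 0 and 5 below, and their median was -0.02 beside -0.12 for all features tested. The signs of HLA-C, B2M, TAP1, TAP2 and PSMB8 turned under 1 or more of quantile normalization, median centring and a GC correction, while HLA-B, HLA-E, HLA-F and PSMB9 kept theirs under these.

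**Figure D2:**
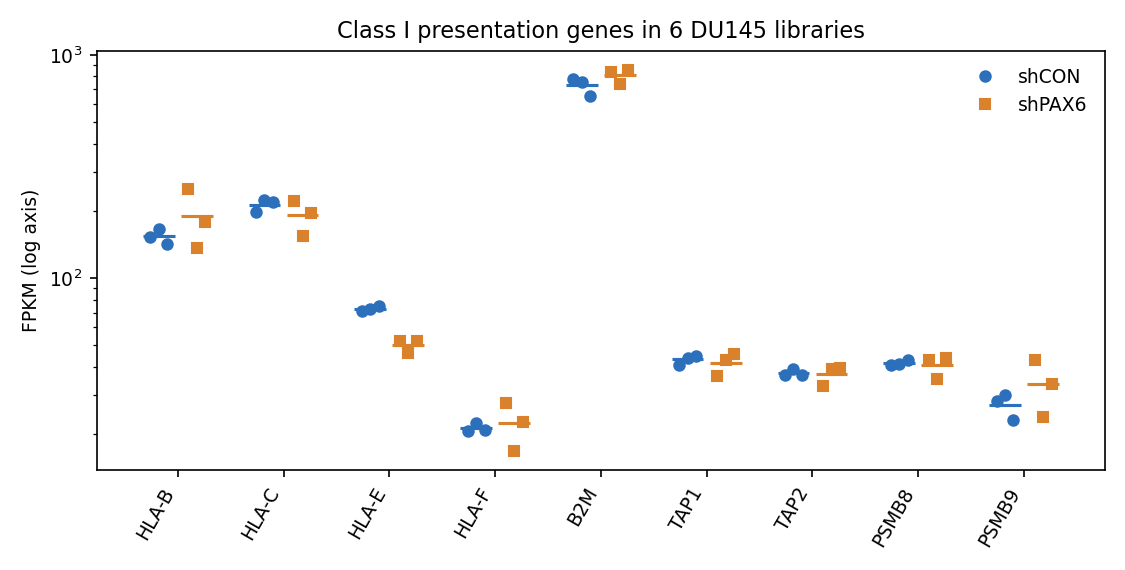
FPKM of the class I presentation genes in the DU145 libraries on a log axis, with shCON as circles and shPAX6 as squares, 1 symbol per library and a line at each group mean (n = 3). For HLA-E the shPAX6 squares (46.3 to 52.4) all lie below the shCON circles (71.0 to 74.8), and for the other members the groups overlap.

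The members did not vary together over the libraries. On log2 values over 6 libraries, HLA-B and PSMB9 had a Pearson r of 0.98 and TAP1 and TAP2 of 0.88, whereas HLA-B and TAP1 had an r of -0.71. These are descriptions, and the points share library size and group. The shPAX6 library 1 was the highest for 3 members and the lowest for 2, and its FPKM sum over all features was the largest, 570790 against 448901 to 503696 in the others of its group. The shPAX6 library 2 was the lowest for 5 members, and library 3 the highest for 4. Deviations of a library from the mean of all 6 libraries followed transcript GC content to unlike degrees. The Spearman rho across features was -0.61 in shPAX6 library 2 and 0.52 in shCON library 2. Such deviations also hold any difference between the groups. The members range from 38.9% GC (B2M) to 62.7% (HLA-C). Beyond the GC correction named above, the part of these deviations in the member values was not tested.

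Levels per length kept much of their order between the cell lines. In shCON the order was B2M, HLA-C, HLA-B, HLA-E, TAP1, PSMB8, TAP2, PSMB9 and HLA-F, and the ranges of neighbours overlapped only for TAP1 (40.7 to 44.9 FPKM) and PSMB8 (40.8 to 43.0). In parental LNCaP the first 4 places were the same, at 162, 66.5, 28.4 and 12.9 TPM, and PSMB8 came last at 0.115 TPM. In LNCaP-ENZ cells TAP1 (9.32 TPM) stood above HLA-E (6.77 TPM). TPM and FPKM are not on a common scale, so only orders and ratios within a library are set side by side.

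In DU145 the inducible subunits were a larger share of their constitutive counterparts than in LNCaP for PSMB8 and PSMB9. PSMB8 was 26.4, 25.1 and 26.4% of PSMB5 in shCON and 21.8, 24.2 and 23.7% in shPAX6, groups that did not overlap. The mean was 26.0 ± 0.735% against 23.3 ± 1.28% (exact permutation p = 0.10, two-sided, 0.15 adjusted over 3 ratios). PSMB9 was 10.0, 10.3 and 8.58% of PSMB6 in shCON and 9.12, 9.33 and 9.91% in shPAX6, groups that overlapped (exact permutation p = 0.80).

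PSMB10, which holds the trypsin-like site, was 5.00, 5.77 and 5.73% of PSMB7 in shCON and 4.28, 3.08 and 3.70% in shPAX6, a log2 change of -0.59 (exact permutation p = 0.10, 0.15 adjusted). With 3 libraries against 3 the smallest p this test can give is 0.10, so no ratio could pass 0.05. Beside these shares, the inducible subunits PSMB8 and PSMB10 had log2 fold changes of -0.04 and -0.17 (limma adjusted p 0.81 for PSMB10). The constitutive subunits had log2 fold changes of 0.12 for PSMB5, 0.30 for PSMB6 and 0.41 for PSMB7 (limma adjusted p 0.32 for PSMB7), none of them called. Each of these constitutive subunits was highest in shPAX6 library 1. PSMB10 stood apart between the lines in the other direction, at 22.9 and 27.3% of PSMB7 in LNCaP against 3.08 to 5.77% in DU145.

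**Figure D3:**
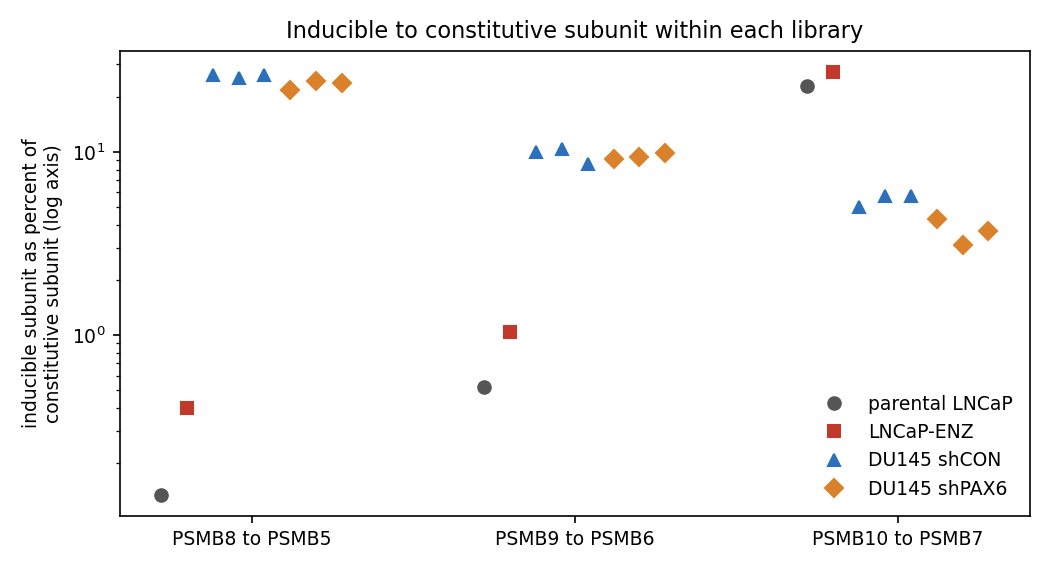
Each inducible proteasome subunit as a percent of the constitutive subunit it replaces, per length and within a library, on a log axis, for the LNCaP and DU145 libraries (1 symbol per library). PSMB8 is at 0.134 and 0.400% in LNCaP and at 21.8 to 26.4% in DU145, while PSMB10 is higher in LNCaP (22.9 and 27.3%) than in DU145 (3.08 to 5.77%).

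The other steps of the pathway in DU145 held no called gene either. Of 7 peptide loading and trimming genes 0 were called, with a median log2 fold change of -0.17. ERAP1, the peptidase that trims peptides in the endoplasmic reticulum, was at -0.95, which rests on shPAX6 library 1 at 0.913 FPKM against 8.53 to 12.7 in the other libraries and is 0.19 without it, and the chaperone CANX was at -0.25. Of 3 other inducible proteasome genes 0 were called, with PSME2, the other PA28 subunit, at 0.51 (limma adjusted p 0.35). Log2 fold changes were above 0 for 5032 of the 13574 features tested and for all 11 shared core subunits. The median of the 11 was 0.33, and 0 were called. Groups did not overlap for 5, in the higher direction, beside 6.7% of features. The largest log2 fold change was that of PSMA3, an alpha ring subunit, at 0.45 (limma adjusted p 0.18), followed by PSMB1 at 0.44. Each of the 11 was highest in shPAX6 library 1. The sum of their levels was 2669 to 3021 FPKM in shCON and 2859 to 4480 FPKM in shPAX6.

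Values were below 0 for 8542 of the 13574 features tested. All 11 tested transcription regulators of class I genes were below 0 too, and 0 were called. Their median was -0.43, and IRF9 (-1.27) and STAT2 (-1.15), both parts of ISGF3, were the lowest, with 1 library setting much of each value. IRF9 was at 7.5 FPKM in shCON library 3 and 0.540 to 1.68 in the others, and its value was -0.51 without that library. STAT2 was at 2.68 FPKM in shPAX6 library 1 and 8.79 to 15.9 in the others, and its value was -0.53 without it. IRF1 was at -0.49 (limma adjusted p 0.21) and NLRC5 at -0.26 (0.71). CIITA was under the filter. Of 7 interferon receptors and kinases 0 were called, with the receptor kinases TYK2 at -0.52 and JAK1 at -0.37. JAK1 rests on shPAX6 library 1 and was at 0.0049 without it. These lists contain no called gene. The unadjusted limma p was under 0.05 for 3 of the 11 core subunits, 3 of the 11 regulators and 2 of the 7 receptors and kinases. The share of all features was 18.3%.

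Called genes were found among the interferon-stimulated genes outside presentation. Of 18 listed genes 14 were tested, 7 were called lower and 0 called higher, and the median was -1.47, where 1.02% of all features were called lower. The calls were lost without shCON library 1 or 3 and with the replicate block (0 of the list), and 1 and 2 genes were called without shCON library 2 and shPAX6 library 3, while the median stayed between -1.64 and -1.43 when 1 library was left out. Among the called genes OASL was at -2.71 (limma adjusted p 0.0032). OAS1, a sensor of double-stranded RNA, was at 1.56, 1.88 and 1.54 FPKM in shCON and 0, 0.182 and 0.0474 FPKM in shPAX6. It passed the filter through shCON alone, so the pseudocount sets its fold, -3.45 (limma adjusted p 0.020) and -1.31 with a pseudocount of 1. OASL was at 14.8, 15.1 and 18.7 FPKM in shCON and at 2.73, 2.10 and 2.36 FPKM in shPAX6, groups that lay wide apart. No test of the difference between these genes and the class I members was run, and the list was chosen with earlier results of these data known.

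**Figure D4:**
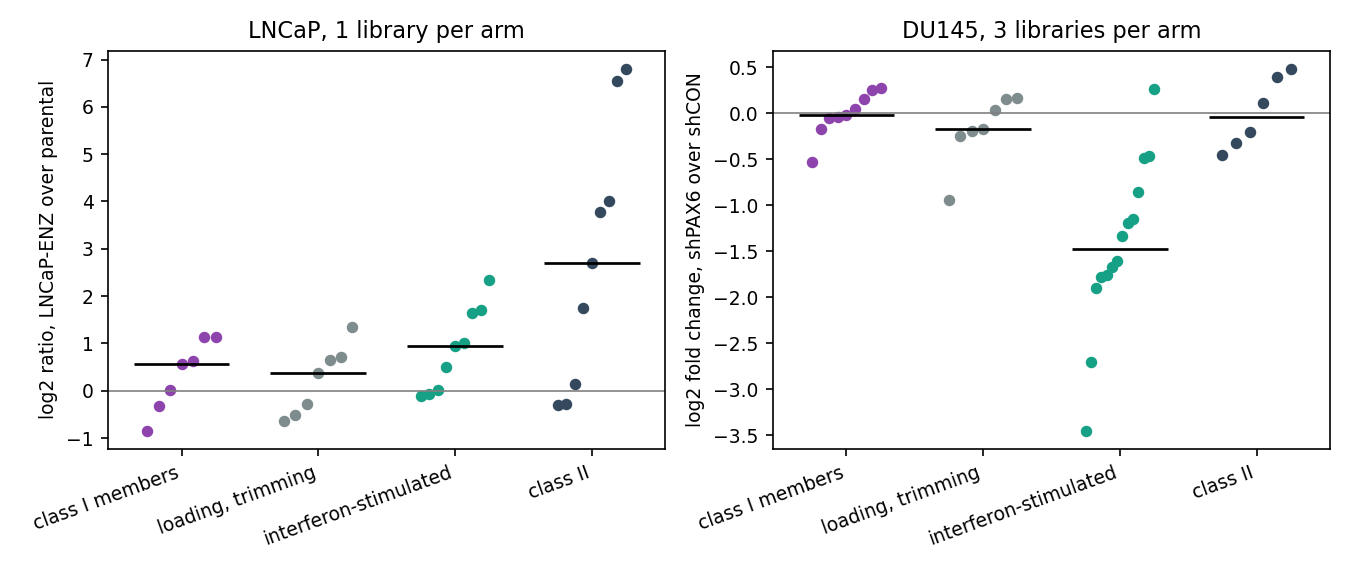
Log2 ratios in LNCaP (left, 1 library per arm, genes with a mean of at least 1 CPM) and log2 fold changes in DU145 (right, 3 libraries per arm, tested genes) for 4 gene lists, 1 point per gene and a line at each median. In LNCaP the class I members have a median of 0.56 and the class II genes of 2.70, and in DU145 the members lie near 0 (median -0.02) while the interferon-stimulated genes have a median of -1.47. Most of the higher class II genes passed the LNCaP filter through the LNCaP-ENZ library.

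Other class I-like genes had 8 of 10 tested and 0 called. MICA, a stress ligand of NKG2D that was picked out after its values were seen, was higher in every shPAX6 library than in any shCON library, at 64.6, 50.9 and 59.5 FPKM against 35.5, 41.5 and 37.3, and missed the threshold (log2 fold change 0.61, limma adjusted p 0.087). MR1, which presents vitamin B metabolites, was at -0.65 (limma adjusted p 0.22), and FCGRT at -0.64 (limma adjusted p 0.18). Class II genes had 6 of 9 tested and 0 called, with HLA-DQB1 at 0.48 and CD74 at -0.46. Across the other genes of the same HLA region, 99 were tested, with 0 called higher and 3 called lower. The shares of all features were 0.177% and 1.02%. Log2 fold changes in the region were above 0 for 29 genes and below 0 for 70, and the median was -0.23. The features whose log2 values followed the mean of the standardized members most closely over the 6 libraries, out of 12022, were USF1 (Pearson r 0.99), ZCWPW1 (0.99), PRR22 (0.98), MRM3 (0.98) and TARBP2 (0.97). They are the highest of all features searched over 6 points, and are given as a description.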

How the data were processed

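RNA-seq tables of 8 libraries were used. No file of the 6 ATAC-seq samples was used here. According to the methods, the authors aligned reads to GRCh37 with HISAT2 and quantified with StringTie. Whether counting used strand is not given in the sources used here. For LNCaP the authors deposited whole-number counts per gene and TPM (count over gene length, rescaled). For DU145 the deposited values carry no unit name and were treated as FPKM, so depth is unknown and no count test was run. The methods state 3 replicates per cell line, whereas the labels give 1 LNCaP library per arm.

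Samples were grouped by their labels. LNCaP counts were scaled by library total (log2 of CPM + 0.1, filter of a mean of 1 CPM) with 95% exact Clopper-Pearson intervals for how the counts split. DU145 values were tested with limma 3.58.1 in R 4.3.3 (eBayes with trend) after adding 0.1 to each FPKM and taking log2. Features under a mean of 0.5 FPKM were left out, and tests were two-sided, Benjamini-Hochberg adjusted over all tested features with a threshold of 0.05. Alternatives were pseudocounts of 1 and 0.01, other filters, TMM factors (edgeR 4.0.16), median scaling, quantile normalization, a GC correction (12009 of 13574 features, 88.5%, have a GC content; loess, span 0.5), a replicate block, and each library left out. The script was tested on simulated data.

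Members and lists were chosen with earlier results of these data known. Named were every member, listed genes past the threshold (where none passed, the 2 largest changes, and where over 4 passed, the 2 largest in each direction), IRF1, NLRC5, PAX6, the replaced subunits and PSMB10, and the 5 closest patterns. Single leukocyte and prostate markers, HLA-F-AS1, PSMB8-AS1, IFIT2 and MICA were named, and the alternatives for the interferon-stimulated list, STAT2, JAK1, ERAP1 and IRF9 added, after their values were seen. Some listed genes are not reported here. Promoters are RefSeq sequences.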

Additional observations from a re-analysis of the deposited data

How the results depend on the processing

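With 1 library per arm, LNCaP ratios have no replicate check. The median log2 ratio of the members, 0.63, was 0.54 with a pseudocount of 1, 0.54 from the TPM, 0.78 with TMM factors and 0.78 with the median of expressed genes set to 0. Of the 4 members at least 2-fold higher, 2 passed with a pseudocount of 1, 2 with a mean of at least 1 CPM and 3 with the TPM, since PSMB8 and PSMB9 rest on few counts.

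In DU145 the median of the members was -0.016 and became 0.16 with median centring, 0.048 with the GC correction and 0.048 with the GC correction and replicate block, and leaving out 1 library gave -0.063 to 0.057. Values that changed sign with quantile normalization were B2M (-0.14), TAP1 (0.00061), TAP2 (0.065) and PSMB8 (0.0071), with median centring HLA-C (0.0023), TAP1 (0.12), TAP2 (0.16) and PSMB8 (0.13), and with the GC correction, with or without the replicate block, HLA-C (0.033), B2M (-0.022), TAP1 (0.086) and PSMB8 (0.048). Leaving out 1 library also turned signs, with ranges of -0.12 to 0.24 for HLA-F, -0.13 to 0.038 for TAP1, -0.06 to 0.072 for TAP2 and -0.10 to 0.057 for PSMB8. The value of opposite sign came without shPAX6 library 1 for HLA-F and TAP1, without shPAX6 library 1 or shCON library 2 for TAP2, and without shPAX6 library 2 for PSMB8. The change of PSMB9 to PSMB6, -0.02, ranged from -0.10 to 0.028 when 1 library was left out, with 0.0076 without shCON library 1, 0.028 without shCON library 2 and 0.0029 without shPAX6 library 1.

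Of the members, 0 were called in every alternative except that HLA-E was called without shPAX6 library 1, so leaving out 1 library gave 0 to 1 called. The count of all features called, 163 (24 higher and 139 lower), was 108 with no filter and 100 with median centring (28 and 72). It was 236 with quantile normalization (74 and 162) and 147 with the GC correction (42 and 105). It was 0, 5 and 0 without shCON libraries 1, 2 and 3, and 920, 903 and 10 without shPAX6 libraries 1, 2 and 3. The cause was not tested. Chosen after seeing the data, values without shPAX6 library 1 turned sign for JAK1 (0.0049) and ERAP1 (0.19).

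Replicate numbers are shared by the groups, and deviations of same-numbered libraries correlated at -0.17, -0.37 and 0.05. With 3 libraries per group, each centred on its group mean, these correlations cannot tell whether same-numbered libraries were paired. With the replicate block 0 features and 0 members were called (1568 features at an unadjusted p under 0.05), and 5 features with the block and the GC correction. Of the shCON libraries 0 of 3, and of the shPAX6 libraries 1 of 3, correlated best with their own number.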

Other observations

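Some ratios between members within a library were looked at after their values were seen and are given as values, with no test. HLA-E was 7.97% of B2M per length in parental LNCaP and 2.03% in LNCaP-ENZ cells. In DU145 it was 9.06, 9.59 and 11.4% of B2M in shCON and 6.28, 6.25 and 6.08% in shPAX6. HLA-B was 42.6% of HLA-C in parental LNCaP and 61.0% in LNCaP-ENZ cells, and in DU145 77.4, 74.8 and 64.8% in shCON and 113, 88.7 and 91.3% in shPAX6. The shPAX6 values lay below every shCON value for the first of these ratios and above every shCON value for the other. TAP1 was 180% of TAP2 in parental LNCaP and 265% in LNCaP-ENZ cells, and 110 to 123% across the DU145 libraries, with overlapping groups. HLA-B was 17.5 and 17.7% of B2M in the LNCaP libraries, and 18.5 to 30.1% in DU145.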
